A study of Mus musculus with 22 samples.

Results

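Neuronal and synaptic genes were followed in bulk RNA sequencing of CD11b+ cells from mouse brain. The set holds 33 genes of the 56691 genes in the deposited tables. It was chosen by a list of neuronal genes present in both batch files, which includes synaptic genes that are lower in P14 HIE, so the P14 HIE and P14 Control values helped to choose it and are given below as a description with no test. The rule sets no numerical threshold. All 33 genes passed the filter on low counts, among 22517 genes tested at the early time point and 21678 at P14.

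All animals were CF-1 wildtype mice, an outbred stock. In the HIE (hypoxic-ischemic encephalopathy) groups, the dam had received the bacterial product LPS on E18 and the pups had a brief hypoxia on P6, whereas Control dams had saline and Control pups room air. The early groups were 4 HIE pups (litters N5 and N8, all labelled male) and 4 Control pups (2 male, 2 female; litters P6H63 and P6H55). HIE pups carry the day P7, and the 4 Controls carry P8, P9, P10 and P11, 1 pup each, although the study describes collection on P7. The P14 groups were 4 HIE animals (litters P4H1 and P6H12), 4 Control animals (P4H4 and P6H8) and 4 Hypoxia animals (P6H7 and P6H9), with 1 male and 1 female from each litter. The sources used here do not describe how the Hypoxia animals were treated. Animals that share a name stem are called a litter here, and each litter belongs to 1 treatment group. Early and P14 libraries are in separate batch files, so age and batch cannot be told apart and their levels are only set side by side.

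Neurons pass signals at synapses, where vesicles carrying transmitter fuse with the presynaptic membrane and receptors anchored in a postsynaptic scaffold receive the transmitter. Glutamate is the main excitatory and GABA the main inhibitory transmitter of the forebrain, and the first weeks after birth of a mouse are the main period of synapse formation. The CD11b integrin is carried by myeloid cells such as microglia and not by neurons, and microglia are known to contact and engulf synaptic material during this period.

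The labels name the cells as CD11b+ monocytes. Of 16 listed microglia markers 15 were matched, and all 15 had counts in every animal. Their summed level was 18400 to 31100 CPM (counts scaled to library size with TMM factors) at P14 and 19300 to 21900 CPM in early HIE. In the early Controls it was 2443 and 1567 CPM in litter P6H63 and 17260 and 15330 CPM in litter P6H55. The P6H63 Controls therefore stand apart from the other 18 animals in their microglia markers, and the early fold changes are given with and without them. In these bulk samples, fewer cells of a type and less RNA per cell cannot be told apart. Total counts were 70191584 to 83469067 per library at the early time point and 29751540 to 46404123 at P14. A floor of 3 counts was 0.0359 to 0.0427 CPM in the early libraries and 0.0646 to 0.101 CPM in the P14 libraries, and every member was above it in every animal. These floors cover counting error only.

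Promoter sequence is shown for 5 members on which the results below turn. Kcnj4 and Slc24a2 had among the lowest P14 HIE levels relative to Control, Vgf is the only member whose window held a CRE, and Gria1 and Gria2 lay in opposite directions between the P14 name prefixes. The windows cover the 250 bases before the start of the canonical transcript on GRCm39 (GENCODE M39), without bases in an annotated exon. The CRE (cAMP response element), through which neuronal activity and cAMP raise transcription of some genes, was searched as TGACGTCA, which reads the same on both strands, and is in capitals. It was found in 369 of 21770 promoter windows of this length (1.69%) and in 1 of 33 member windows. A match is a description of the sequence and not evidence of binding.
Vgf, chr5:137058880-137059113, plus strand, ending 17 bases before the start: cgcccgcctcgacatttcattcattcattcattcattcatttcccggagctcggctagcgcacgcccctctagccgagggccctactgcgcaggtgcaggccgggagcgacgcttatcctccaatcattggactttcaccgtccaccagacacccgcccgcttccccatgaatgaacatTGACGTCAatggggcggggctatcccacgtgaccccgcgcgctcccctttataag
Kcnj4, chr15:79390033-79390282, minus strand: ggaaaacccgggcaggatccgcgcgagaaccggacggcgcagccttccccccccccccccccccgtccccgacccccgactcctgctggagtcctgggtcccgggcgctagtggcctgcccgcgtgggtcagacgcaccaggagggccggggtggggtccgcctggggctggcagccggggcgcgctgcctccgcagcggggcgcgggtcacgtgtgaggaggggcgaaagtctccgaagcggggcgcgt
Slc24a2, chr4:87148814-87149063, minus strand: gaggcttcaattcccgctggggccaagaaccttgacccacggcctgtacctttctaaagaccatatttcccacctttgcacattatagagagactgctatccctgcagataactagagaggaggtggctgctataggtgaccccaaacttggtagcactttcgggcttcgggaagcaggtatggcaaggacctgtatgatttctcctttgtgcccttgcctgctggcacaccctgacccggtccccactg
Gria1, chr11:56901903-56902152, plus strand: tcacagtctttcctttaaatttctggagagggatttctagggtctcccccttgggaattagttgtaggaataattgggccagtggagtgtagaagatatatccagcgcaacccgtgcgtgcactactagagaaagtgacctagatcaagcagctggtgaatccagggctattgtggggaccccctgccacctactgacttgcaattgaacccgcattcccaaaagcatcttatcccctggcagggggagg
Gria2, chr3:80710539-80710788, minus strand: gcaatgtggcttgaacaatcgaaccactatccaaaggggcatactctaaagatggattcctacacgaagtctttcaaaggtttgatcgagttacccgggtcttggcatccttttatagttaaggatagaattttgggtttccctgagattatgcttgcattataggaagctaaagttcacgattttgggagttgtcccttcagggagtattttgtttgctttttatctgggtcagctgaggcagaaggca
The Vgf CRE begins 71 bases before the start. GC content was 77.2% in the Kcnj4 window, 59.8% in Vgf, 53.6% in Slc24a2, 50.4% in Gria1 and 42.4% in Gria2.

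The P14 values that chose the set were as follows. Every one of the 33 genes had a lower mean log2 CPM in P14 HIE than in P14 Control, with a median difference of -0.89, or 54.1% of the Control level, against a median of 0.01 over all 21678 genes, of which 48.9% were lower. The difference ran from -1.41 for Kcnj4 to -0.36 for Dlg4. All 4 HIE animals lay below all 4 Controls for 21 of the 33 genes, where 2.95% of all genes did so. Within the prefix P4H the median was -0.95 and both HIE animals lay below both Controls for 32 genes (23.9% of all genes), and within P6H the median was -0.83 with 28 such genes (17.0% of all genes). These counts restate how the set was chosen and are not evidence of its direction.

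**Figure D1:**
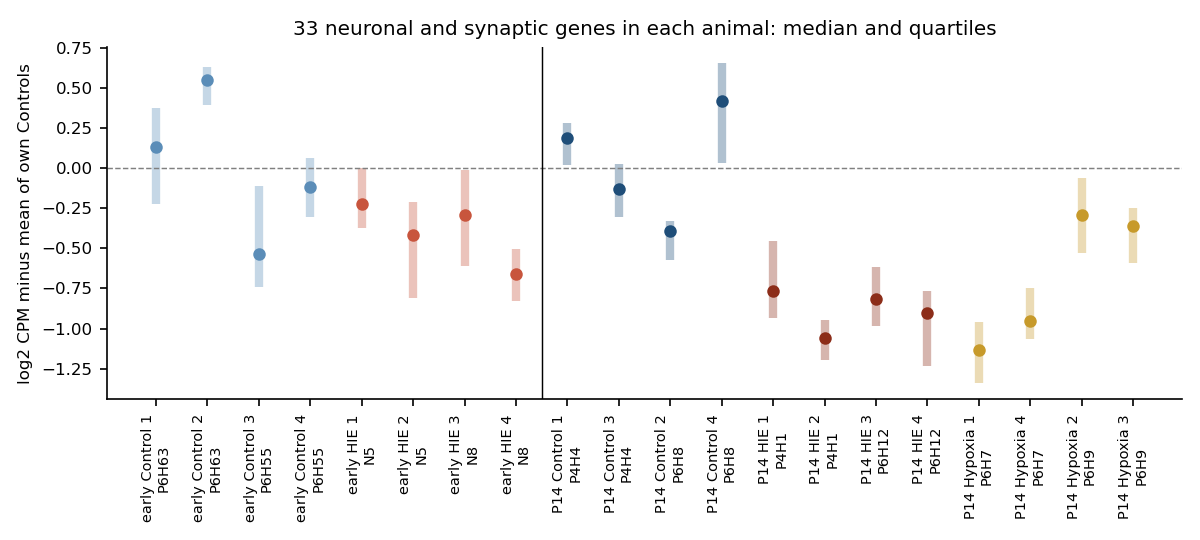
Each point is the median over the 33 genes, in 1 animal, of log2 CPM minus the gene's mean in the Controls of the same age, and each bar spans the quartiles. Animals are ordered by group and litter, and the vertical line separates the batch files. The 4 P14 HIE animals sit between -1.06 and -0.77, the Hypoxia litter P6H7 at -1.13 and -0.95, and the Hypoxia litter P6H9 at -0.29 and -0.36.

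Among the ion channels and exchanger, Kcnj4 encodes an inward-rectifier potassium channel of neurons. Its level was 3.45, 2.52, 3.35 and 4.06 CPM in P14 Controls 1 to 4, 1.32, 1.20, 1.08 and 1.24 CPM in P14 HIE 1 to 4, and 0.592, 2.18, 1.29 and 1.51 CPM in P14 Hypoxia 1 to 4. All 8 HIE and Hypoxia animals lay below the lowest Control, and the HIE mean was 37.5% of Control. Slc24a2, a potassium-dependent sodium/calcium exchanger of neurons, was at 34.3, 23.6, 29.0 and 29.4 CPM in the Controls and 13.6, 8.53, 15.9 and 11.7 CPM in HIE, with no overlap. Scn2a, a voltage-gated sodium channel of axons, was at 47.5, 40.5, 36.3 and 118.9 CPM in the Controls and 31.2, 27.5, 30.04 and 29.9 CPM in HIE. The 4 HIE values of Scn2a lay close together, whereas Control 4 was far above the other 3 Controls.

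The dense-core vesicle genes followed the same order. Vgf, a secreted peptide precursor of neurons, was at 8.69, 7.35, 9.51 and 12.0 CPM in the Controls and 4.91, 4.45, 4.23 and 3.18 CPM in HIE. Ptprn, a membrane protein of dense-core vesicles, was at 17.1, 13.4, 14.6 and 23.0 CPM in the Controls and 8.71, 7.34, 8.69 and 8.81 CPM in HIE. For both genes the groups did not overlap, and the log2 differences were -1.15 and -0.99.

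For the synaptic vesicle and release genes Snap25, Syt1 and Syp, which encode a fusion protein, a calcium sensor and a vesicle membrane protein, the log2 differences lay between -0.94 and -0.87. Syp, which had the highest CPM of the role, was at 60.3, 44.0, 46.2 and 87.2 CPM in the Controls and 34.8, 30.7, 31.3 and 28.8 CPM in HIE. None of the 3 genes overlapped between the groups. Of the presynaptic adhesion genes, Nrxn2, a neurexin, was at 72.3, 59.9, 74.3 and 88.5 CPM in the Controls and 42.9, 37.9, 43.2 and 48.1 CPM in HIE, again with no overlap. Nrxn3 and the cadherin Celsr3 overlapped between the groups, with differences of -0.65 and -0.79.

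Of the glutamate receptor subunits, Grin1, Grin2a and Grin2b form NMDA receptors and Gria1 and Gria2 form AMPA receptors. The NMDA receptor genes did not overlap between P14 HIE and Control and differed by -0.93, -0.86 and -0.98. Gria1 and Gria2 overlapped, and their values are given below by prefix. In the postsynaptic kinases and scaffold, Icam5, an adhesion protein of forebrain dendrites, had the lowest HIE level relative to Control at 37.8%. Its values were 6.74, 3.79, 5.58 and 6.58 CPM in the Controls and 2.71, 1.57, 2.19 and 1.95 CPM in HIE. Dlg4, which encodes the scaffold protein PSD-95, was at 65.8, 47.0, 56.6 and 51.8 CPM in the Controls and 42.6, 39.9, 41.9 and 46.5 CPM in HIE. HIE 4 was within 1 CPM of Control 2, and Dlg4 had the smallest difference of the set. Of the other genes of this role, the kinase genes Camk2b and Lmtk3 differed by -0.996 and -0.91 with no overlap, and the scaffold genes Shank1 and Shank3 by -0.98 and -0.50 with overlap. Camk2a, a kinase of excitatory synapses, had a mean difference of -1.24 but overlapped, since HIE 1 at 23.6 CPM lay above Control 2 at 17.2 CPM.

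All 4 transmitter identity genes had groups that did not overlap. Slc17a7, the vesicular glutamate transporter VGLUT1 of cortical neurons, was at 47.3, 29.6, 32.8 and 82.1 CPM in the Controls and 21.6, 21.2, 19.8 and 23.6 CPM in HIE. Slc17a6, the VGLUT2 transporter of subcortical neurons, differed by -0.64, and Gad1 and Gad2, the enzymes that make GABA, differed by -0.64 and -0.76. The listed genes of excitatory and of inhibitory neurons were both lower, which restates how the set was chosen. In the neuronal cytoskeleton and nucleus, the microtubule-associated protein gene Map1b was at 349, 191, 266 and 263 CPM in the Controls and 191, 122, 195 and 137 CPM in HIE, with Control 2 inside the HIE range. Its mean difference was -0.73. The growth-associated Stmn2, the tubulin Tubb3, the neurofilaments Nefl and Nefm and the nuclear protein gene Rbfox3 differed by -0.69, -0.94, -1.05, -0.72 and -0.91. Nefm was the only one of the 6 genes of this role that did not overlap. Nefl and Nefm overlap on opposite strands of chromosome 14, and whether reads were counted by strand is not given in the sources used here, so their counts are uncertain.

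**Figure D2:**
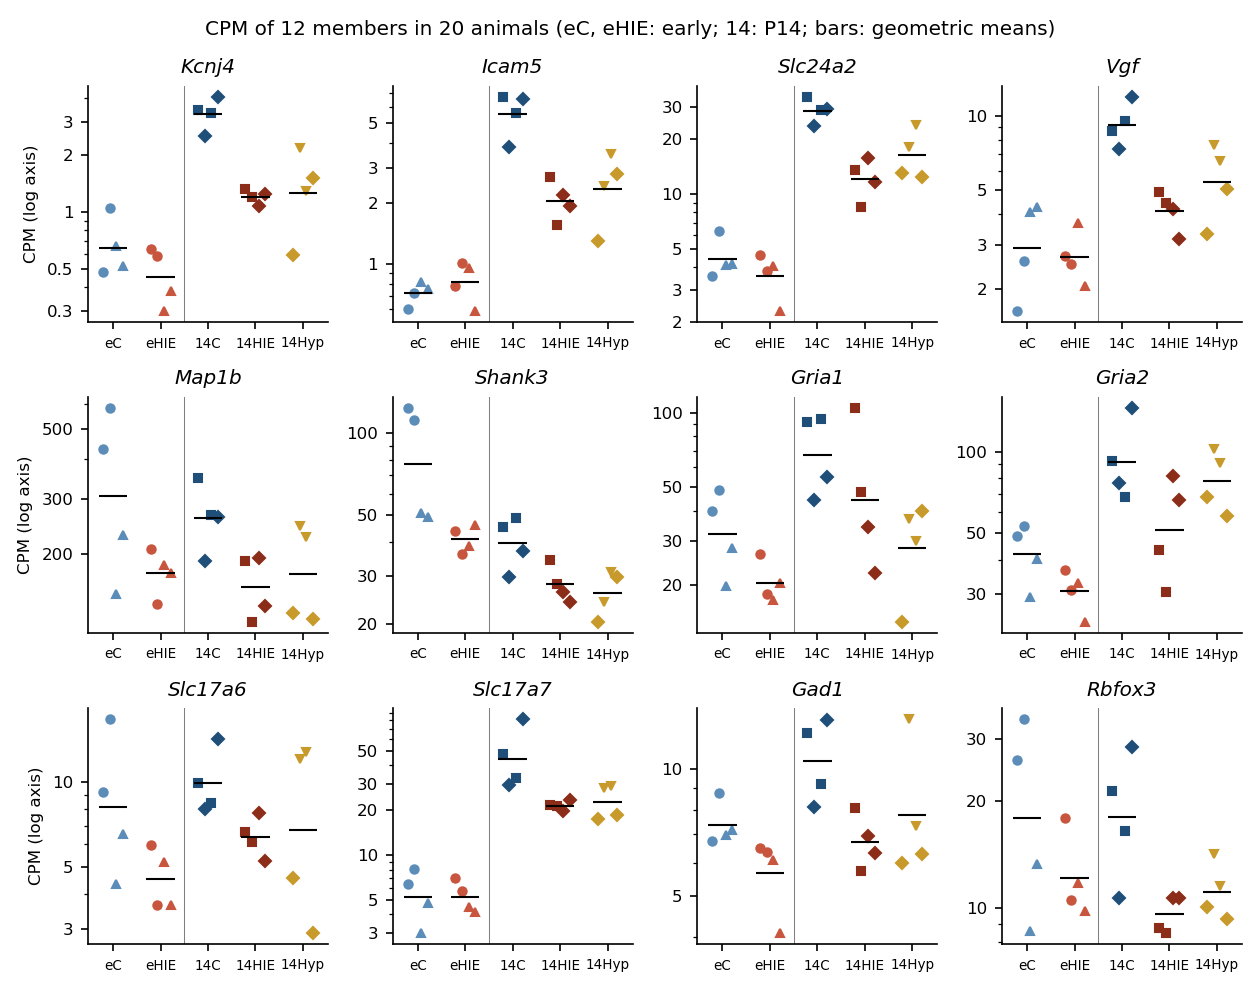
CPM on a log axis of 12 members in 20 animals, with early Control (eC), early HIE (eHIE), P14 Control (14C), P14 HIE (14HIE) and P14 Hypoxia (14Hyp) from left to right, symbols that differ between litters of a group, and bars at the geometric mean. Kcnj4 lies between 2.52 and 4.06 CPM in the P14 Controls and between 1.08 and 1.32 CPM in P14 HIE, and Shank3 in the early Controls splits into 2 pups at 112.0 and 123.9 CPM and 2 at 49.1 and 50.9 CPM.

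P14 Control 4 carried part of these differences. It lay above Control 2 of the same litter for all 33 genes, with a median log2 difference of 0.77. Without Control 4 all 33 genes were still lower in HIE, the median difference was -0.70, and within P6H, where a single Control then remained, it was -0.46. The count of genes with no overlap cannot change without Control 4, because Control 4 was never the lowest Control. Sums of markers of other cells were as follows. The 9 oligodendrocyte markers summed to 1200 to 4580 CPM in P14 Control and 690 to 2390 CPM in HIE, and the 8 endothelial markers to 516 to 874 and 768 to 1240 CPM. By prefix, the oligodendrocyte sums were 4582 and 4165 CPM in the P4H Controls and 1872 and 690 CPM in P4H HIE. In P6H they were not lower in HIE, at 2007 and 1196 CPM in the Controls and 2394 and 1274 CPM in HIE. The 15 microglia markers summed to 18900 to 25100 CPM in Control and 20900 to 31100 CPM in HIE, and the 10 astrocyte markers to 1430 to 3650 and 2260 to 3350 CPM. None of these markers was at 0 in a P14 animal. Their part in the lower levels of the neuronal genes was not tested.

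In the P14 Hypoxia animals all 33 genes were also lower than in the 4 Controls on average, with a median log2 difference of -0.69. This comparison uses the same Controls as the one above and so is given as values only. All 4 Hypoxia animals carry the prefix P6H. Against the P6H Controls alone 32 genes were lower, where 56.1% of all genes were, with a median of -0.66, and Nefm was higher at 0.08. All 4 Hypoxia animals lay below all 4 Controls for 8 genes, namely Nrxn2, Grin1, Gria1, Camk2b, Dlg4, Icam5, Kcnj4 and Slc17a7, where 2.87% of all genes did so. The 2 Hypoxia litters were far apart. In litter P6H7 the median difference from the Control mean was -1.13 and -0.95, as low as in HIE, and in litter P6H9 it was -0.29 and -0.36. Slc17a6 was at 4.57 and 2.89 CPM in P6H7 and 12.1 and 12.8 CPM in P6H9, against 8.01 to 14.3 CPM in the Controls. Against all 4 Controls Nefm had a mean difference of -0.06, the smallest of the set. Without Control 4 the median over the 33 genes was -0.56.

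The early groups were compared with tests, since the rule uses the early data only in requiring each gene to be present. The members, gene lists and tests were nonetheless chosen with earlier results of these data known. The question was whether these genes differed in CD11b+ cells soon after hypoxia. None of the 33 genes passed an adjusted p of 0.05 in the quasi-likelihood test of edgeR, where 0.0666% of all genes did. At an unadjusted p under 0.05 there were 8 genes (24.2% of the set, against 27.3% of all genes), all lower in HIE, and DESeq2 called 3, namely Nrxn2, Shank3 and Nefm, where it called 13.4% of all genes. In direction, 28 of 33 genes were lower in HIE with a median log2 fold change of -0.47, against -0.08 over all genes, of which 56.5% were lower.

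The 8 genes were Shank3, Slc17a6, Map1b, Nefm, Nrxn2, Gria1, Nefl and Lmtk3. Shank3, a scaffold protein of excitatory synapses, was at 123.9, 112.0, 50.9 and 49.1 CPM in early Controls 1 to 4 and 43.7, 35.9, 38.5 and 45.9 CPM in early HIE 1 to 4. Each HIE pup lay below each Control, and the log2 fold change was -1.03 ± 0.32 (SE, 4 against 4; adjusted p = 0.15), or -0.28 (adjusted p = 0.274) without the P6H63 Controls. Map1b was at 433, 583, 151 and 230 CPM in the Controls and 209, 139, 185 and 175 CPM in HIE, with a log2 fold change of -0.98 ± 0.39 (adjusted p = 0.167), or -0.09 without the P6H63 Controls. The high Control values were those of litter P6H63, and Control 3 lay inside the HIE range. Slc17a6 was at 9.22, 16.9, 4.33 and 6.55 CPM in the Controls and 5.97, 3.64, 5.21 and 3.63 CPM in HIE (-1.001 ± 0.41, adjusted p = 0.168; -0.23 without the P6H63 Controls). Nrxn2 was at 100.7, 125.3, 49.7 and 73.7 CPM in the Controls and 55.2, 44.7, 52.0 and 40.9 CPM in HIE (-0.86 ± 0.27, adjusted p = 0.15; -0.35 without the P6H63 Controls). For Nefm, Gria1, Nefl and Lmtk3 the log2 fold changes were -0.98, -0.72, -0.68 and -0.66, and without the P6H63 Controls they were -0.39, -0.20, -0.13 and -0.17. Outside these 8, Gad1 was the other member for which every HIE pup lay below every Control, where 8.47% of all genes did so; its values were 6.77, 8.80, 6.97 and 7.19 CPM in the Controls and 6.49, 6.37, 6.11 and 4.09 CPM in HIE (-0.37 ± 0.18, adjusted p = 0.22; -0.29 without the P6H63 Controls).

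By role, the median early log2 fold change against all 4 Controls was lowest for the neuronal cytoskeleton and nucleus at -0.72, then presynaptic adhesion at -0.63, vesicle and release at -0.56, glutamate receptors at -0.47, ion channels at -0.39, postsynaptic kinases and scaffold at -0.39, dense-core vesicle at -0.30 and transmitter identity at -0.25. Without the P6H63 Controls this order turned over, with dense-core vesicle lowest at -0.49, then transmitter identity at -0.17, ion channels at -0.14, vesicle and release at -0.13, postsynaptic kinases and scaffold at -0.12, the cytoskeleton and nucleus at -0.03, glutamate receptors at 0.001 and presynaptic adhesion at 0.04. Another 5 members were higher in HIE than in all 4 Controls by small amounts, from Nrxn3 at 0.06 to Icam5 at 0.21, and these included the NMDA receptor subunits Grin1 and Grin2b and the kinase Camk2a. Grin1, for example, was at 8.43, 8.81, 10.3 and 10.7 CPM in the Controls and 11.8, 10.8, 12.0 and 7.28 CPM in HIE. The 93 other neuronal genes in 7 lists were also mostly lower. Of the 92 that were tested none was called, and 84 were lower in HIE, where 56.5% of all genes were. At an unadjusted p under 0.05 there were 37 lower and 3 higher genes. That is a larger share than among the 33 members (24.2%) or all genes (27.3%). Without the P6H63 Controls 55 of 93 were lower and none was called. Then 8 lower and 2 higher genes had an unadjusted p under 0.05, where 3838 of all 23274 genes did. The median over the lists was -0.05 where it had been -0.67. The 3 with the highest CPM were Zic1, a transcription factor of cerebellar and other neurons (-1.05 ± 0.43, adjusted p = 0.17), the tubulin Tubb2b (-0.86 ± 0.36, adjusted p = 0.173) and the calcium channel Cacna1a (0.56 ± 0.26, adjusted p = 0.196), which without the P6H63 Controls were at -0.04, -0.18 and 0.17. Lists of dense-core vesicle and neuropeptide genes and of growing neurons had medians of -0.89 and -0.90, and of -0.28 and 0.08 without the P6H63 Controls.

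The early differences depended on the Control litter. Against the P6H63 Controls alone, 27 of 33 genes were lower in HIE, the median was -0.69, and 19 genes were called, or about the share called among all genes (58.5%). Against the P6H55 Controls alone, 21 genes were lower, the median was -0.12, and no member was called (0.112% of all genes). Of the members 2 had an unadjusted p under 0.05, where 3838 of all 23274 genes did. Without Control 3 of litter P6H55, 11 members were called, where 24.2% of all genes were. Between the Control litters themselves, 25 genes were higher in P6H63, with a median log2 difference of 0.65. Tubb3, a tubulin of neurons, averaged 70.0 CPM in P6H63 and 22.6 CPM in P6H55, with 28.2 CPM in HIE, so it differed by -1.28 from the one litter and 0.33 from the other. Rbfox3, which encodes the neuronal nuclear protein NeuN, averaged 30.3 and 10.9 CPM in the Control litters and 12.5 CPM in HIE. Vgf lay the other way, with 2.11 CPM in P6H63, 4.20 CPM in P6H55 and 2.75 CPM in HIE.

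**Figure D3:**
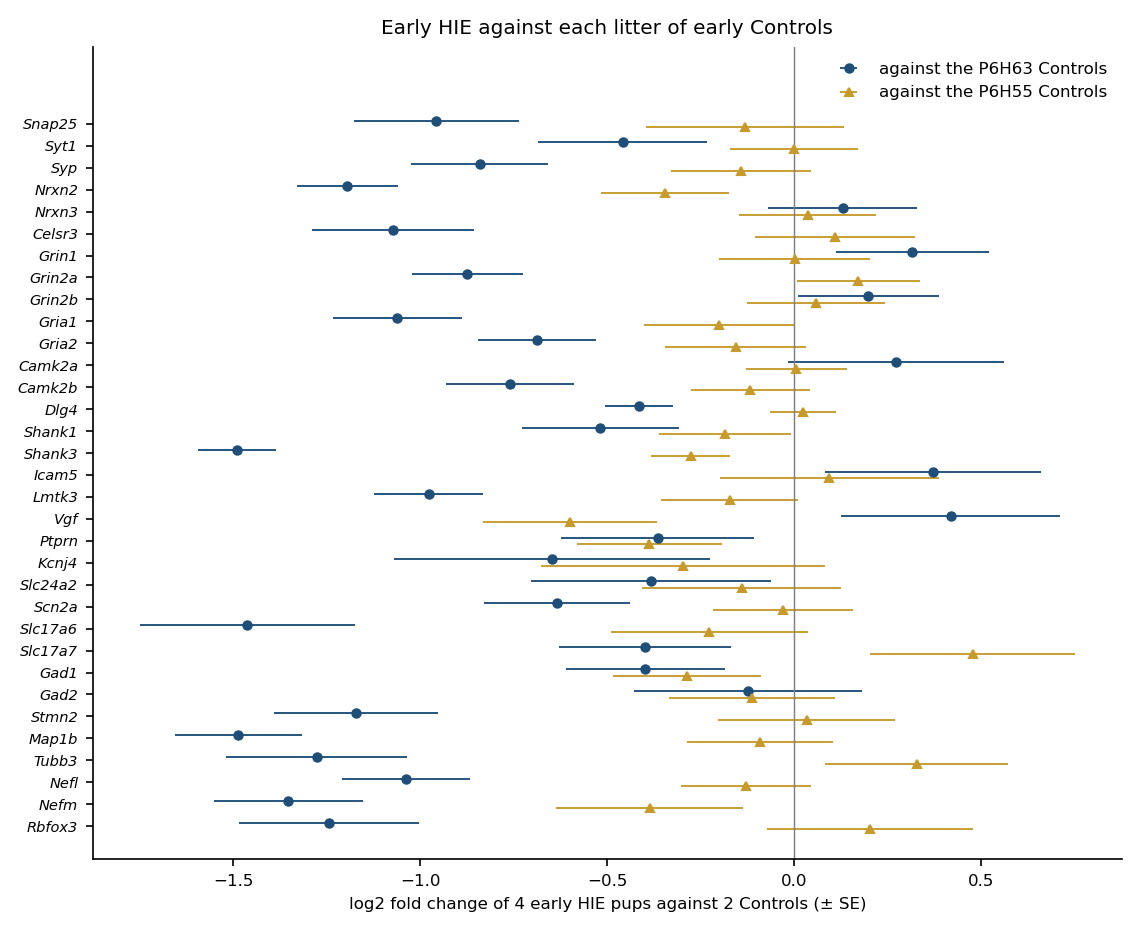
Log2 fold change with its SE (horizontal axis) of the 4 early HIE pups against the 2 Controls of litter P6H63 (circles) and against the 2 Controls of litter P6H55 (triangles) for the 33 genes. The circles reach -1.49 for Shank3 and for Map1b, whereas the triangles lie between -0.60 for Vgf and 0.48 for Slc17a7.

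Litter, labelled day and most of the listed cell type markers move together here. The summed CPM of the 33 genes was 1241 and 1598 in the P6H63 Controls, 611 and 823 in the P6H55 Controls and 591 to 779 in HIE. Over the same pups the 10 astrocyte markers summed to 1500 to 5320 CPM in Control and 1410 to 1880 CPM in HIE, the 7 choroid plexus markers to 3430 to 8960 and 1150 to 2160 CPM, and the 8 endothelial markers to 991 to 2370 and 701 to 933 CPM. No astrocyte, endothelial, choroid plexus or microglia marker was at 0 in any early pup. The astrocyte markers all had lower values in HIE (median log2 fold change -0.99), as did the endothelial (-0.95) and choroid plexus (-1.46) markers, none of them called, and the microglia markers were all higher (median 1.15, none called). Without the P6H63 Controls these medians were -0.32 for astrocyte, -0.28 for endothelial, -0.999 for choroid plexus and 0.34 for microglia markers, again with none called. The 9 oligodendrocyte markers did not share the drop. Only 3 were lower in HIE (median 0.11), and they summed to 199 to 315 CPM in Control and 175 to 337 CPM in HIE. All 6 oligodendrocyte precursor markers were lower (median -0.98), all 6 border macrophage markers higher (0.78), and 3 of 5 red blood cell markers lower (-0.43), none called. What part these cell types have in the neuronal values was not tested.

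Ratios between 2 members within an animal do not depend on the scaling of the library. Of 5 pairs, chosen after the values were seen, the ratio of Slc17a7 to Slc17a6 (VGLUT1 to VGLUT2, CPM per kb of exon) was the one that separated the early groups. It was 0.720, 0.491, 0.713 and 0.748 in early Controls 1 to 4 and 1.21, 1.63, 0.887 and 1.17 in early HIE 1 to 4. Each HIE pup was above each Control of both litters, with a mean log2 difference of 0.86 (exact two-sided permutation test, p = 0.0286, the smallest that 4 against 4 can give; adjusted over the 5 ratios, p = 0.143). A single pair that separates fully can reach no smaller adjusted p in this design, and with pairs chosen after the values were seen the ratio is given as a description. The test shuffles single pups and takes no account of litter mates. At P14 this ratio was 3.81 to 5.94 in Control, 2.64 to 4.66 in HIE and 2.36 to 6.63 in Hypoxia, so the P14 groups overlapped and all 12 animals were above the early pups. The ratio of Grin2a to Grin2b, the NMDA receptor subunits whose balance shifts from Grin2b to Grin2a as forebrain synapses mature, was 0.739, 0.637, 0.323 and 0.282 in the early Controls, 0.296 to 0.374 in early HIE and 0.478 to 0.789 over all P14 animals. Here the P6H63 Controls lay within the P14 range and the P6H55 Controls near early HIE (exact two-sided permutation test, p = 0.343). Early HIE and Control did not differ beyond their spread for Gria2 to Gria1 (p = 0.314), Camk2a to Camk2b (p = 0.0857) or Gad1 to Gad2 (p = 0.143) in the same exact permutation test.

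**Figure D4:**
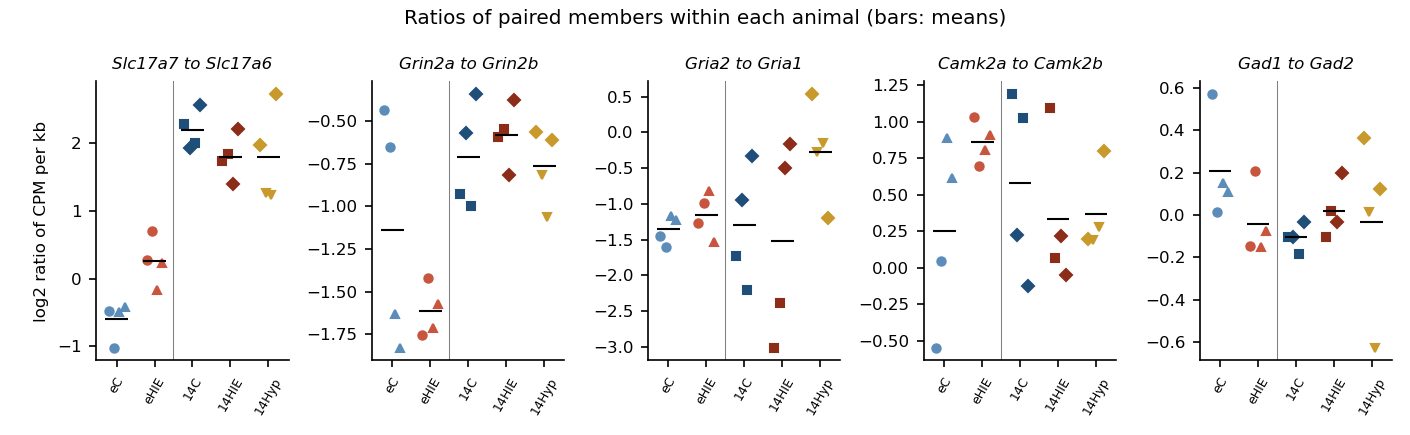
Log2 ratio of CPM per kb of exon of 5 pairs of members, 1 point per animal, with the groups from left to right as early Control, early HIE, P14 Control, P14 HIE and P14 Hypoxia and bars at the group mean. For Slc17a7 to Slc17a6 the early HIE pups lie above the early Controls, and for Gria2 to Gria1 the P4H animals (squares) lie below the other P14 animals of their group.

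Set side by side, the levels per kb of exon were highest for Map1b in all 5 groups, with means of 21.1 CPM per kb in early Control and 16.2 CPM per kb in P14 Control. Tubb3 followed in both, with 14.4 and 10.1 CPM per kb. Kcnj4 was among the lowest 2 genes in every group, at 0.180 CPM per kb in early Control and 0.890 CPM per kb in P14 Control. Slc24a2 was at 3.55 to 6.32 CPM in early Control and 23.6 to 34.3 CPM in P14 Control, and Icam5 at 0.601 to 0.820 and 3.79 to 6.74 CPM. Rbfox3 ranges overlapped between the ages, at 8.59 to 34.3 and 10.7 to 28.5 CPM. As stated above, age and batch cannot be told apart in these values.

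The P14 HIE and Control animals also carry 2 name prefixes, P4H and P6H, which the sources used here do not define. Each prefix holds 1 HIE and 1 Control litter, so the prefixes were compared with treatment in the fit. These animals also helped to choose the set. The prefixes are balanced over treatment, but whether that choice affects the spread within groups, and so the p-values, was not tested. No member was called (1.19% of all genes), 8 had an unadjusted p under 0.05 (24.2% of the set, against 27.0% of all genes), and DESeq2 called 6 (13.7% of all genes). The median of the set was -0.05, and 15 genes were higher and 18 lower in P4H. Gria1, Shank1, Camk2a, Nefl and Shank3 had higher values in P4H, and Gria2, Nrxn3 and Celsr3 had lower ones.

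Gria1 was at 91.8 and 93.9 CPM in the P4H Controls, 104.7 and 47.7 CPM in P4H HIE, 44.2 and 54.7 CPM in the P6H Controls and 34.2 and 22.2 CPM in P6H HIE. Within each treatment the P4H animals were higher, and the log2 fold change was 1.17 ± 0.25 (SE, 4 against 4; adjusted p = 0.0527). Gria2 was at 92.8 and 68.3 CPM in the P4H Controls, 43.4 and 30.5 CPM in P4H HIE, 76.9 and 145.4 CPM in the P6H Controls and 81.3 and 66.3 CPM in P6H HIE. Here the P4H HIE animals were lower than the P6H HIE animals, the Controls overlapped, and the log2 fold change was -0.74 ± 0.23 (adjusted p = 0.0909). The ratio of Gria2 to Gria1 per kb was 0.302 and 0.218 in the P4H Controls, 0.124 and 0.191 in P4H HIE, 0.520 and 0.795 in the P6H Controls and 0.710 and 0.892 in P6H HIE, so every P4H animal was below every P6H animal. The pair was chosen after the values were seen, and its members lie at opposite ends of the prefix fold changes. Its separation by prefix is therefore a description only. Shank1, a scaffold protein like Shank3, was at 62.3 and 68.6 CPM in the P4H Controls and 27.5 and 39.6 CPM in the P6H Controls, and at 43.3 and 22.6 CPM against 17.6 and 17.7 CPM in HIE (0.93 ± 0.20, adjusted p = 0.0527). Camk2a differed by 0.82, Nefl by 0.75, Shank3 by 0.40, Nrxn3 by -0.57 and Celsr3 by -0.55, with adjusted p from 0.0706 to 0.153. The calls depended on the setting. With no filter on low counts 11 members were called, 6 of them higher in P4H (8.99% of all genes), 5 were called without P14 Control 2 (12.4% of all genes) and 4 without P14 HIE 2 (2.28% of all genes). With no filter the log2 fold changes of Gria1 and Gria2 hardly moved, at 1.18 and -0.72. Their adjusted p in the quasi-likelihood test of edgeR went to 1.5e-22 and 6.59e-09. The animals were the same, so these p-values are not read as stronger evidence than those of the main fit.

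**Figure D5:**
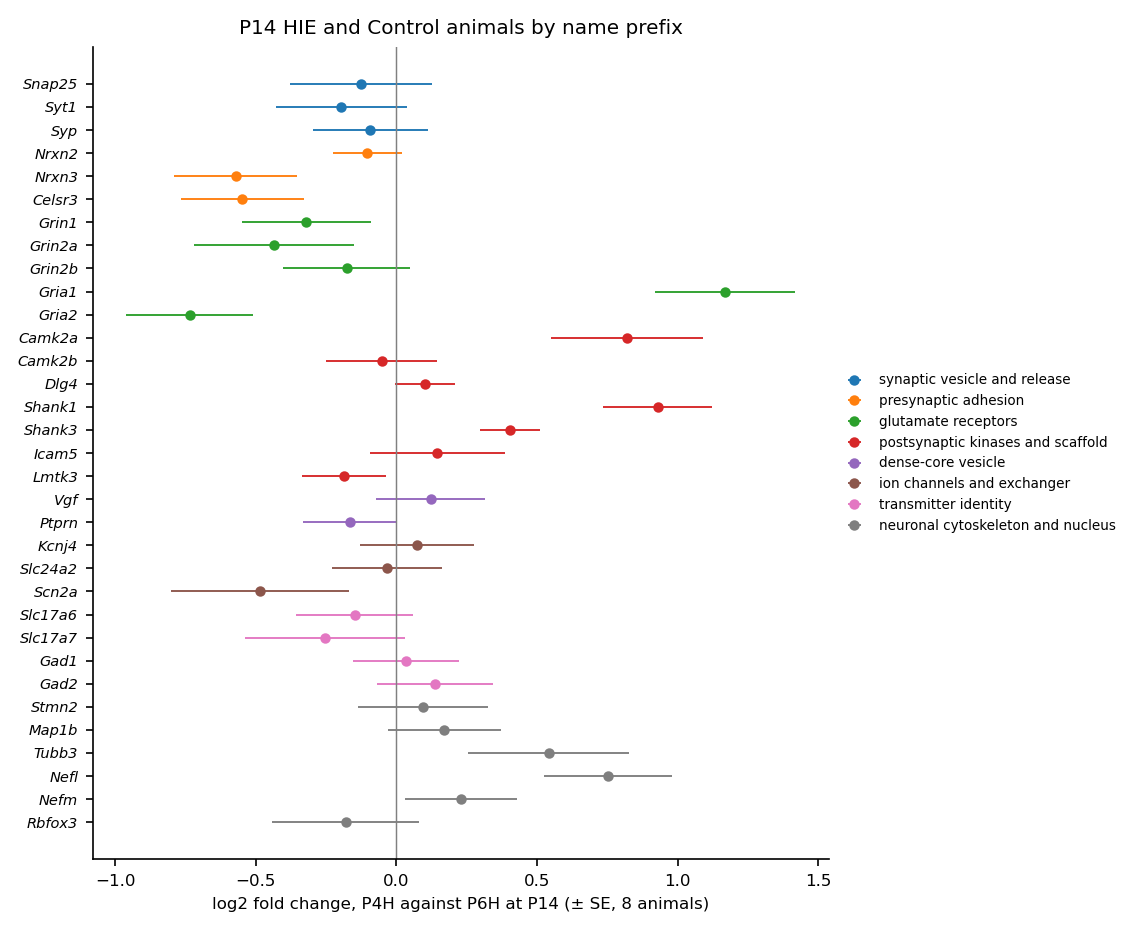
Log2 fold change with its SE (horizontal axis) of P4H against P6H for the 33 genes in the 8 P14 HIE and Control animals, coloured by role. Gria1 at 1.17 and Gria2 at -0.74 lie at the ends of the range, and the synaptic vesicle genes Snap25, Syt1 and Syp lie between -0.20 and -0.09.

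Other markers differed between the prefixes as well. All 10 astrocyte markers were higher in P4H, 1 of them called (median log2 fold change 0.83), as were all 8 endothelial markers, 2 of them called (0.48), and all 5 red blood cell markers, none called (1.78). Of the 92 other neuronal genes tested none was called, and 10 higher and 4 lower genes had an unadjusted p under 0.05. Cacna1a, Syngr1 and Cacna1e had the highest CPM among them and differed by -0.57, -0.10 and -0.60. The prefixes hold 2 litters each, so a difference between prefixes and one between litters cannot be told apart.

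Sex was compared over the 12 P14 animals with litter in the fit, since each of the 6 litters holds 1 female and 1 male. The HIE and Control animals among them also helped to choose the set, so the same limit holds for these p-values. No member was called by edgeR (0.0432% of all genes) or by DESeq2 (18 of 20844 genes). At an unadjusted p under 0.05 there were 5 (15.2% of the set, against 3.01% of all genes), namely Snap25, Nrxn3, Gad1, Grin2a and Gria2. These 5 were lower in females, with log2 fold changes between -0.41 and -0.33 and adjusted p of 1. Over the set 29 of 33 genes were lower in females, with a median of -0.22 against -0.001 over all genes, of which 50.3% were lower. Of the 92 other neuronal genes 82 were lower, none called. Without P14 Control 2 (female) or Control 4 (male), which are litter mates, the median was -0.10. Leaving out each animal in turn gave 1 to 10 members at an unadjusted p under 0.05. There was 1 without P14 Control 1 (469 of 21031 genes) or Control 3 (474 of 21142 genes), and 10 without P14 HIE 3 (895 of 21052 genes). Snap25, for example, was at 23.9 CPM in Control 2 and 60.3 CPM in Control 4, whereas the female and male of the HIE litter P6H12 were at 22.6 and 22.9 CPM.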

How the data were processed

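Bulk RNA sequencing of CD11b+ brain cells covered 22 libraries from 20 mice. The authors mapped reads to GRCm39 with STAR 2.7.10b (the Sentieon version) and estimated gene counts with RSEM 1.3.1. They deposited these expected counts without scaling for depth. Between 84.2 and 88.0% of a library's values were whole numbers.

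Expected counts were rounded, and 2 libraries of 1 animal were summed. Levels are CPM after TMM scaling, and log2 CPM used a prior count of 2. Of 56691 gene identifiers 56017 matched GENCODE M39. In R 4.3.3, edgeR 4.0.16 gave the main test (quasi-likelihood, default filter on low counts) and DESeq2 1.42.0 an alternative, both with Benjamini-Hochberg adjustment over all genes and a threshold of 0.05. Each was tested on simulated counts that held no litter effect and no shift in cell types, so these features of the data were not covered. The early groups were fitted alone, the prefixes with treatment and the sexes with litter. SE is the log2 fold change divided by the root of the F statistic. Litter mates entered as separate animals, so p-values measure the spread between these animals. Groups came from the treatment and time labels. The members, gene lists, named-gene rule (all members by role, and other list genes that were called or had the highest CPM) and tests were chosen with earlier results of these data known. Alternatives covered scaling, filter, tool, Control litter, males only, prefix and leaving out each animal. Ratios of members, P14 medians without Control 4 and early role and list values without the P6H63 Controls were added after seeing the data.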

Additional observations from a re-analysis of the deposited data

Results flagged for a closer look

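Of 165 groups of 4 animals, 1 for each member in each group, 3 (1.82%) held a value farther from the rest than Dixon's 95% critical value for a gap relative to the group's range allows on the log2 scale. Chance alone gives about 1 in 20 groups. Gad1 was lowest in early HIE 4, at 4.09 CPM, against 6.11 to 6.49 CPM in the other HIE pups. Camk2a was highest in P14 HIE 1, at 23.6 CPM, against 10.2 to 11.5 CPM in the other P14 HIE animals. Ptprn was lowest in P14 HIE 2, at 7.34 CPM, against 8.69 to 8.81 CPM in the other P14 HIE animals.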

How the results depend on the processing

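In the early comparison the count of called members was 0 and became 3 with DESeq2 and 19 with the P6H63 Controls alone. Leaving out each pup gave 0 to 11 members, and the 11 came without early Control 3. The early median was -0.47 and became -0.12 with the P6H55 Controls alone. In the prefix comparison 0 members were called, and 6 were with DESeq2 and 11 with no filter on low counts. Leaving out each animal gave 0 to 5, namely 5 without P14 Control 2 and 4 without P14 HIE 2. The cause of these moves was not tested. With library size only the early median was -0.72, and with males only or without early Control 2 it was -0.26. Of the 21 fold changes of members at an unadjusted p under 0.05, none turned its direction under the alternatives run. The other counts of called members were 0 as reported, and the other medians stayed within the spread between animals of a group. Members at an unadjusted p under 0.05 ranged over all alternatives from 1 (males only) to 20 (P6H63 Controls only) in the early comparison. Over all genes the counts in these 2 settings were 3415 of 23274 and 15011 of 23780, so they moved with the members. Leaving out a pup gave 3 to 19 members, and the 19 came without early Control 3, where 10152 of 23060 genes passed. Between the prefixes the range was 5 (P14 HIE only, 4879 of 22572 genes) to 13 (without P14 Control 2, 6910 of 21538 genes). Between the sexes it was 1 to 10. No paired analysis was possible for the early and prefix comparisons because each litter belongs to 1 treatment group and 1 prefix, so no litter mates span the compared groups. The sex comparison was paired by litter, and with treatment in place of litter its median was -0.24 with 0 members called. The lowest member value, Kcnj4 in early HIE 3, rests on 21 counts.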
